A study of Mus musculus with 8 samples.

Results

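Trimethylation of histone H3 at lysine 4 (H3K4me3) was mapped by CUT&RUN in haematopoietic stem cells (HSCs) of RXRKO and WT mice, with 1 library for each genotype, 2 of the 8 libraries of the study. In this assay an antibody brings a nuclease to marked nucleosomes and the released DNA is sequenced. The RXRKO mice were VaviCre+ Rxrabfl/fl, with a Cre that acts in blood cells and floxed alleles of both Rxra and Rxrb, the genes of the retinoid X receptors alpha and beta. The WT mice were Rxrabfl/fl without Cre in the design text, but the genotype label of the WT library reads VavCre+, so the Cre status of the controls is unclear. All mice were C57BL/6 and about 10 months old. HSCs were sorted as Lin-cKit+Sca1+CD48-CD150+ marrow cells from pools of 4 or 5 mice, and 7500 cells entered each assay. The labels used here do not give the sex of the mice. With 1 library for each genotype no test between genotypes is possible, and every difference below describes these 2 libraries. The other 6 libraries, 4 of H3K4me1 and 2 of H3K27ac, served to see whether places marked in 1 genotype also differed in separate libraries.

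H3K4me3 is laid down by the SET1 and MLL methyltransferases and marks the nucleosomes that flank gene starts, above all at promoters rich in CpG dinucleotides, whose unmethylated CpGs recruit these enzymes. Polycomb-bound promoters of developmental genes carry it in stem cells together with the repressive mark H3K27me3. Retinoid X receptors pair with other nuclear receptors, such as those for retinoic acid, vitamin D, thyroid hormone and fatty acids, and bind DNA to control transcription.

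The promoters below are examples of the sequence contrast that accompanied the H3K4me3 calls. Other promoters of these classes overlap in their number of CpGs. Each is 300 bases of the RefSeq annotation on GRCm38.p6, 250 bases before the start and 50 after it, read 5' to 3' on the gene's strand, with every CG in capitals. Hlf (chr11:90390868-90391167, minus strand), a transcription factor gene of HSCs, was marked in both genotypes and holds 30 CpGs. Elavl2 (chr4:91399935-91400234, minus strand), a neuronal RNA-binding protein gene, and Gabrg1 (chr5:70842568-70842867, minus strand), a GABA receptor subunit gene, were marked in RXRKO only and hold 10 and 3. Slc17a8 (chr10:89621200-89621499, minus strand), a vesicular glutamate transporter gene, was marked in WT only and holds 7. Mpo (chr11:87793534-87793833, plus strand), the myeloperoxidase gene of granulocytes, was marked in neither and holds 2.
Hlf: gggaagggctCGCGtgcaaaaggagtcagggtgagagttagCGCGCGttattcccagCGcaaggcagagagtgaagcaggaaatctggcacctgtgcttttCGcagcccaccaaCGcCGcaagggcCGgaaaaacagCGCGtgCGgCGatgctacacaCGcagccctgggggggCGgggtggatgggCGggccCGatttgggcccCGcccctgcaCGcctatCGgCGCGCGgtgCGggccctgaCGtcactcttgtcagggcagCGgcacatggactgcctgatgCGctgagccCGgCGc
Elavl2: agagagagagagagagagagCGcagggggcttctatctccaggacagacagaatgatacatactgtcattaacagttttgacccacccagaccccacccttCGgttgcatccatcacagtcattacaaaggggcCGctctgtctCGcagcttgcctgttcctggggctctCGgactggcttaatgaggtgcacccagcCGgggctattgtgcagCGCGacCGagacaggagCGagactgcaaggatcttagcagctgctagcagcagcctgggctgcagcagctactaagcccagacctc
Gabrg1: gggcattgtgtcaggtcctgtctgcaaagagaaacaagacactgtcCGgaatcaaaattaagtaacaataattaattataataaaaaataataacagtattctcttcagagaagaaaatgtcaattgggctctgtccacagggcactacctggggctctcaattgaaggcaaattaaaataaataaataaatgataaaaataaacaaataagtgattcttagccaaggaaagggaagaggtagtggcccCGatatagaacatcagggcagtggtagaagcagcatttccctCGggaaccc
Slc17a8: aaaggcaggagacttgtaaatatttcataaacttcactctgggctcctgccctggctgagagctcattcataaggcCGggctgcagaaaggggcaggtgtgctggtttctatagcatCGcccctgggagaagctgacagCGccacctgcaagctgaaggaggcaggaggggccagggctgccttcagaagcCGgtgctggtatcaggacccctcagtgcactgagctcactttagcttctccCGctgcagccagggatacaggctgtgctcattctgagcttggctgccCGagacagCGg
Mpo: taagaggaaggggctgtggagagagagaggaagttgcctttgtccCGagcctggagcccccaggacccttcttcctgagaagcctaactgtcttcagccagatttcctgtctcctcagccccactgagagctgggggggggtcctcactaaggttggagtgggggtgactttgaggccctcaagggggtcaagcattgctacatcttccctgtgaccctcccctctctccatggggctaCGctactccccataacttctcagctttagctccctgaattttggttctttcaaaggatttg

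The WT list held 47835 H3K4me3 peaks over 45.5 Mb and the RXRKO list 58136 over 53.8 Mb. The median peak was 805 bp wide in WT and 772 bp in RXRKO, and the median fold over background, a value of the authors' peak caller, was 6.09 and 5.35. The files give no read totals. A genome-wide background recovered from the deposited fold and p-values was 4.12 in WT and 6.68 in RXRKO, 1.62 times as high, so the RXRKO list was made against a higher background, and the part of depth in each difference was not tested. The promoters of all 10 HSC marker genes, among them Procr, Hlf, Mecom, Kit and Fgd5, were called in both libraries. Of 8 granulocyte and monocyte markers none was called in WT and 1, Cd68, in RXRKO, and of 6 T and NK cell markers none was called in WT and 2, Lck and Klrb1c, in RXRKO. Within 5 kb of their starts, however, WT had 1990 bp of H3K4me3 at Cd68, 1200 bp at Lck and 331 bp at Klrb1c. With the same number of top peaks taken from each list, Klrb1c was called in neither. Both libraries called 4 of 5 megakaryocyte, 4 of 5 stromal and endothelial, 4 of 7 erythroid and 1 of 5 B cell markers. Of 5 neuronal markers 2 were called in WT and 4 in RXRKO. The markers that differed, Elavl2 and Gabrg1, are among the strongest RXRKO-only promoters given below, so they are no separate evidence. The promoters of Mpo, Elane, S100a8, Ly6g and Cd3e were called in neither list. No list held a peak on the Y chromosome.

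Most H3K4me3 lay in the same places in both genotypes. RXRKO peaks covered 93.7% of the bases covered in WT, and WT peaks covered 79.4% of those covered in RXRKO. Of the 58136 RXRKO peaks, 13355 (23%) had no WT peak overlapping them by at least 1 bp, and of the 47835 WT peaks, 2539 (5.31%) had no RXRKO peak. With the 47835 RXRKO peaks of highest -log10 q set against the 47835 of WT, the numbers were 5746 (12%) and 5098 (10.7%). Lists of equal number that overlap mostly peak by peak must have similar unmatched counts. This balance therefore does not bear on the excess of RXRKO peaks in the full lists. With the RXRKO list cut to the covered length of the WT list instead, 38773 RXRKO peaks were left. Of these, 1578 (4.07%) lacked a counterpart, as did 9978 of the 47835 WT peaks (20.9%). Which genotype has more unmatched peaks thus depends on how the lists are made equal.

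Peaks without a counterpart were mostly weak. In pools of cells, fewer marked cells and less mark per cell cannot be told apart. Among the 20000 strongest peaks of each list, 14 RXRKO peaks and 15 WT peaks had no overlap in the other full list. In the strongest 10% of each list every peak was shared, all 5814 in RXRKO and all 4784 in WT. In the weakest 10%, 20.6% of RXRKO peaks and 75.2% of WT peaks were shared. Of the 13355 RXRKO peaks without a WT counterpart, 10526 had a -log10 q under 10, and 455 reached 20 or more. Of the 2539 WT peaks without an RXRKO counterpart, 2221 were under 10 and 60 reached 20 or more.

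**Figure D1:**
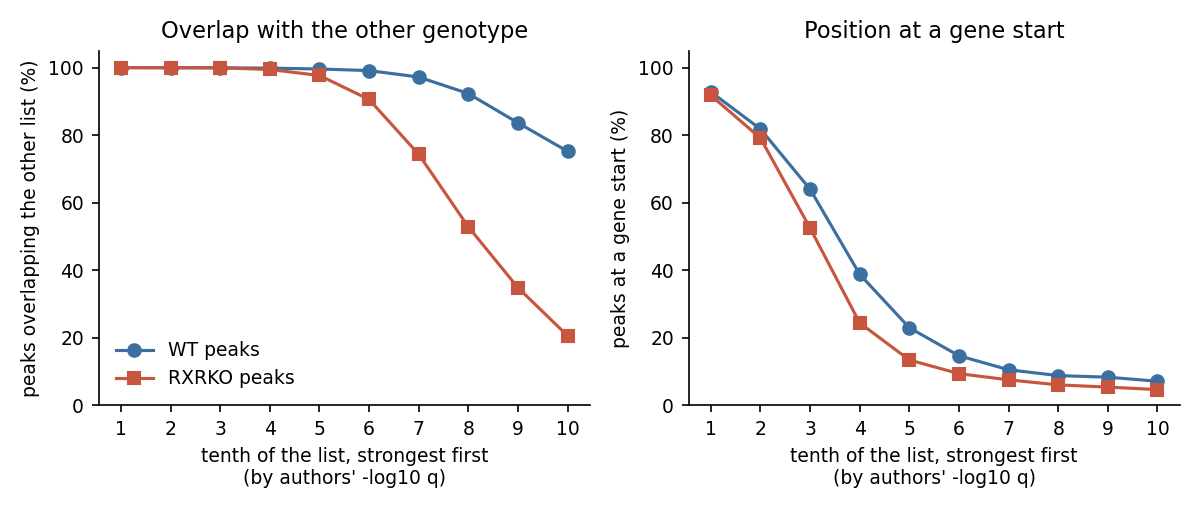
Share of H3K4me3 peaks that overlap the other genotype's list (left, %) and share at a gene start (right, %), in 10 steps of each list ranked by the authors' -log10 q, strongest first, for WT (circles) and RXRKO (squares), 1 library each. Overlap stays at or near 100% in the strong steps and ends at 75.2% in WT and 20.6% in RXRKO, and the share at starts drops from 92.8% and 91.8% to 7.13% and 4.66%.

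The strongest peaks were promoters. In the top 10% of the RXRKO list 91.8% of peaks lay at a gene start, that is within 1 kb of it, at a median distance of 185 bp, and in the weakest 10% the share was 4.66%. The WT list had the same order, from 92.8% to 7.13%. Peaks found in 1 genotype were short and mostly away from starts. Of RXRKO peaks shared with WT, 36.8% lay at a start, against 4.82% of RXRKO-only and 9.30% of WT-only peaks. The RXRKO-only peaks lay in gene bodies in 55.4% of cases and between genes in 39.8%, and the WT-only peaks in 47.1% and 43.6%. Their median widths were 368 bp in RXRKO and 293 bp in WT, against 953 bp for shared RXRKO peaks and 846 bp for shared WT peaks. Weak shared peaks had a similar position. Of the 5304 shared RXRKO peaks with a -log10 q under 10, 7.09% lay at a start, against 4.33% of the 10526 RXRKO-only peaks under 10.

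**Figure D2:**
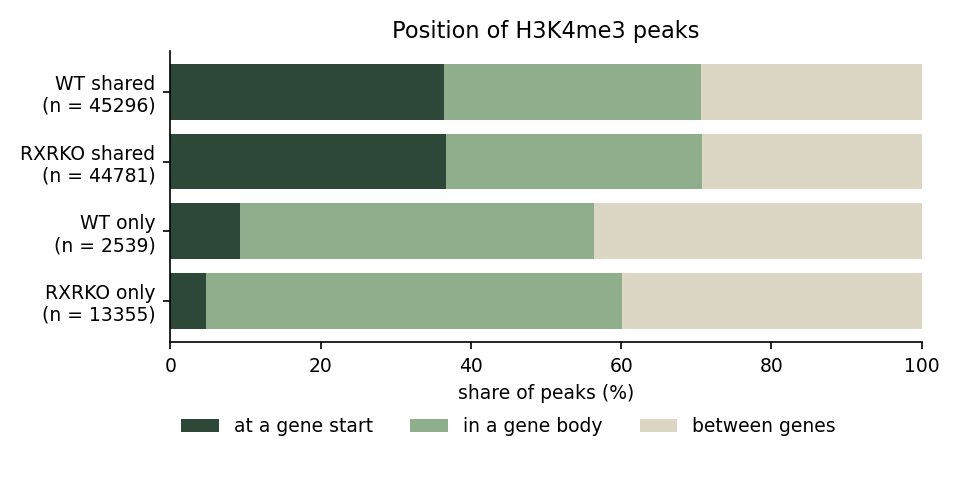
Position of H3K4me3 peaks shared by both genotypes or found in 1, as the share of peaks (%) at a gene start (within 1 kb), elsewhere in a protein-coding gene body, or between genes, with 1 library for each genotype. Peaks of 1 genotype lie at starts in 9.30% (WT) and 4.82% (RXRKO) of cases, against 36.4% and 36.8% of shared peaks.

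The distal sites with H3K4me3 in RXRKO alone were also marked by H3K4me1, the methylation of enhancers and promoter flanks, in both genotypes. H3K4me1 was called in all 4 of its libraries at 12163 of the 13355 RXRKO-only peaks, 91.1%, close to the 94.9% of shared RXRKO peaks. By bases, H3K4me1 covered 90.6% and 90.7% of the RXRKO-only peaks in WT replicates 1 and 2, and 91.8% and 95.8% in RXRKO replicates 1 and 2. Both RXRKO values were above both WT values, by a mean difference of 3.16 percentage points, but RXRKO replicate 1 was closer to WT than to its own replicate. Over shared RXRKO peaks H3K4me1 covered 75.8% and 81.4% of bases in WT replicates 1 and 2, and 74.3% and 83.5% in RXRKO replicates 1 and 2. With 2 libraries against 2 an exact two-sided permutation test cannot go below p = 0.333. H3K27ac, a mark of active enhancers and promoters, had 1 library for each genotype. It covered 54.2% of the bases of RXRKO-only peaks in WT and 59.97% in RXRKO, against 61.6% and 57.9% over shared RXRKO peaks.

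WT-only H3K4me3 peaks were less often marked in every library and differed more between genotypes in H3K27ac. H3K4me1 was called in all 4 libraries at 1827 of the 2539 peaks, 72.0%. It covered 74.0% and 84.2% of their bases in WT replicates 1 and 2, and 68.4% and 72.3% in RXRKO replicates 1 and 2, a mean difference of -8.71 percentage points in RXRKO with replicate differences of -5.57 and -11.9. H3K27ac covered 45.3% of these bases in WT and 17.97% in RXRKO. At an equal number of H3K4me3 peaks the H3K27ac shares of WT-only peaks were 53.0% in WT and 30.9% in RXRKO. Both H3K4me3 libraries, both H3K27ac libraries and the second H3K4me1 replicate of each genotype carry the tag of 1 run in their peak names, and the first H3K4me1 replicates carry that of another run.

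Few of the strong sites of 1 genotype had H3K4me1 in both libraries of that genotype alone, and in both genotypes some had it in the second replicate alone. Of the 60 WT-only H3K4me3 peaks with a -log10 q of 20 or more, 19 had H3K4me1 in WT replicate 2 alone, 4 in both WT libraries and neither RXRKO library, and 23 in all 4 libraries. At a -log10 q of 40 or more, 10 of 16 had H3K4me1 in WT replicate 2 alone. By comparison, H3K4me1 in WT replicate 2 alone was seen at 0.278% of shared WT peaks with a -log10 q of 20 or more. Of the 455 RXRKO-only peaks at 20 or more, 369 had H3K4me1 in all 4 libraries, 21 in RXRKO replicate 2 alone, 19 in all but WT replicate 2, and 4 in both RXRKO libraries alone. H3K4me1 in RXRKO replicate 2 alone was seen at 7 of the 48 at 40 or more and at 0.237% of shared RXRKO peaks at 20 or more. What set the second replicates apart from the first at these sites was not tested, and the WT H3K4me3 library cannot be left out because it is the only one.

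Firre, an X-linked gene for a long non-coding RNA that takes part in chromosome architecture, held most of the strong WT-only peaks of the X chromosome. Over the gene (chrX, 50563120 to 50635321) WT H3K4me3 had 18 peaks that covered 8905 bp, and RXRKO had 1 peak of 1160 bp. H3K4me1 covered 1972 bp in WT replicate 1, 8755 bp in WT replicate 2, 1985 bp in RXRKO replicate 1 and 2416 bp in RXRKO replicate 2. WT replicate 2 was high and the other 3 H3K4me1 libraries were alike, so the replicates of WT differed more than WT replicate 1 and RXRKO. H3K27ac covered 990 bp in WT and 1354 bp in RXRKO. Within 20 kb of Firre, 10 of the 11 WT peaks with a -log10 q of 20 or more had no RXRKO counterpart, against 1 of 710 on the rest of the X chromosome.

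Xist, the long non-coding RNA gene that silences the inactive X chromosome in female cells, also had H3K4me3 in WT alone. Within 3 kb of its start, WT H3K4me3 had 2 peaks that covered 2718 bp, and RXRKO had none. The stronger of these (chrX, 103480920 to 103482354) had a fold of 3.89 in the authors' list. H3K4me1 covered 559 bp in WT replicate 2 and 0 bp in the other 3 H3K4me1 libraries, and H3K27ac covered 709 bp in WT and 0 bp in RXRKO. The X chromosome carried 1121 WT and 1182 RXRKO peaks, a ratio of 1.05 against 1.22 over the autosomes. Of 966 X-linked protein-coding genes, 467 had a promoter call in both lists, 5 in that of RXRKO alone and 2 in that of WT alone. Over all 21631 protein-coding genes, 255 (1.18%) were called in RXRKO alone and 99 (0.458%) in WT alone. The X-linked counts are small, and no direction is read from them.

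A second group of strong WT-only peaks lay in the H2-T cluster of MHC class I genes on chromosome 17, whose members are close copies, so that the placement of reads there is uncertain. The 3 WT-only peaks with the highest -log10 q of the whole list lay there, at 36178874 to 36179393 (fold 19.8), at the start of Gm8909 at 36167155 to 36168717 (fold 8.55) and near H2-T3 at 36215314 to 36216394 (fold 10.7). Over 36141748 to 36226000, H3K4me3 covered 10402 bp in WT and 3793 bp in RXRKO. H3K4me1 covered 4829 bp in WT replicate 1 and 15238 bp in WT replicate 2, against 5389 and 6392 bp in RXRKO, and H3K27ac covered 6553 bp in WT and 2374 bp in RXRKO. The cluster lies within 5 Mb of Rxrb, 1 of the deleted genes. In that window 6 of 283 WT peaks with a -log10 q of 20 or more had no RXRKO counterpart. That was 2.12%, against 0.216% of all such WT peaks. All but 1 of these 6, at 31011653 to 31012186, lay in the H2-T cluster, which was chosen for its WT-only peaks. The WT share is thus no separate result about the window. At the same limit 5 of 310 RXRKO peaks in the window had no WT counterpart (1.61% against 1.38%). At a -log10 q of 40 or more, 4 of 247 RXRKO peaks in that window lacked one (1.62%, against 0.194% of all), among them peaks at Olfr90 and in Tmem217. Both of these named peaks are among the 10 strongest RXRKO-only peaks given below, and the window was chosen after its values were seen. The RXRKO share at this stricter limit is thus no separate result about the window either. Within 5 Mb of Rxra, at a -log10 q of 20 or more, none of 269 WT peaks and 3 of 313 RXRKO peaks lacked a counterpart.

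**Figure D3:**
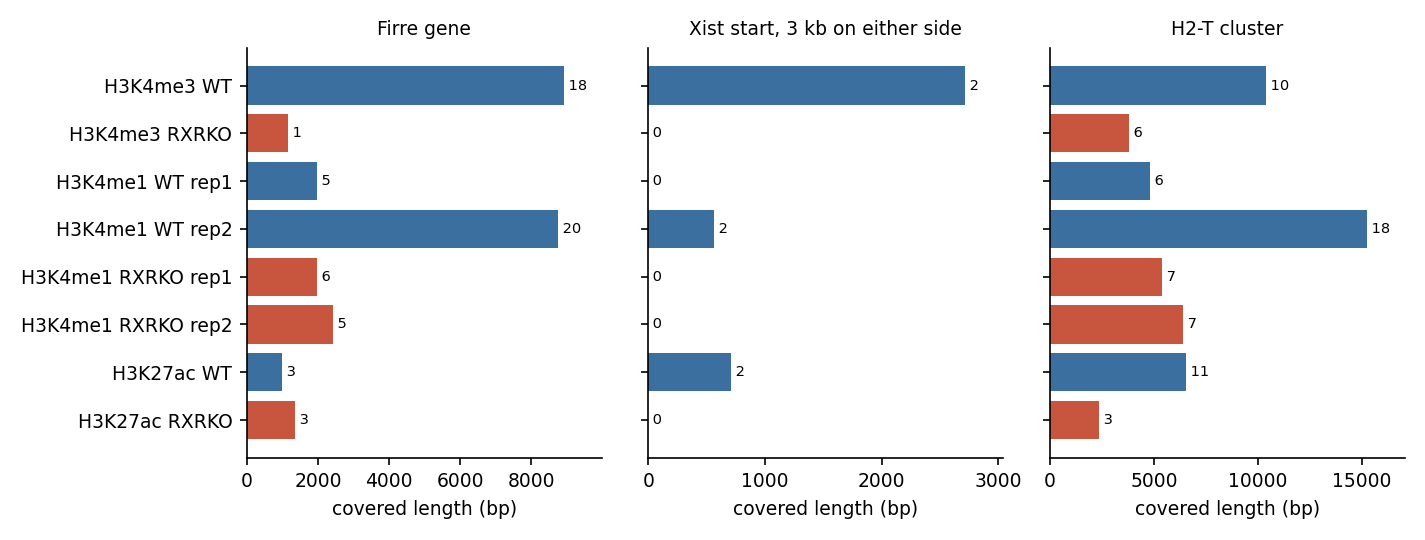
Length covered by peaks (bp) over Firre, within 3 kb of the Xist start and over the H2-T cluster in each of the 8 libraries (WT blue, RXRKO red), with the number of peaks beside each bar. WT H3K4me3 covers 8905, 2718 and 10402 bp and RXRKO H3K4me3 1160, 0 and 3793 bp, and among the H3K4me1 libraries WT replicate 2 stands above the other 3 at each place.

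The remaining WT-only peaks among the 10 strongest lay near Gm35612 (fold 12.9) beside Firre, within the H2-T cluster in Gm8909 (fold 8.17), near Lsm8, a gene of the protein ring on a splicing RNA (fold 14.1), inside Firre at a pair of sites (folds 11.6 and 9.25), in Klf15, a gene of a zinc finger factor of metabolism (fold 11.6), and in Sirt4, a mitochondrial sirtuin gene (fold 5.38). The Klf15 site had H3K4me1 in all 4 libraries, over 1020 bp in both WT replicates and 585 and 745 bp in RXRKO. Its H3K27ac covered 663 bp in WT and 0 bp in RXRKO.

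The strongest RXRKO-only peak lay at the start of Olfr90, an olfactory receptor gene on chromosome 17 (37086090 to 37086768, fold 14.6). H3K4me1 covered it by 592 and 419 bp in the WT replicates and 572 and 606 bp in the RXRKO replicates, and H3K27ac by 0 bp in WT and 586 bp in RXRKO. The next lay between genes near Gm46963 on chromosome 6 (86594451 to 86595624, fold 9.88), inside Tmem217 on chromosome 17 (29523524 to 29524807, fold 12.8) and at the start of Arhgap33os on chromosome 7 (30514646 to 30515655, fold 13.3). At these 3 sites H3K4me1 was called in WT replicate 1 and in both RXRKO libraries but not in WT replicate 2, and H3K27ac was called in RXRKO only. The others of the 10 strongest lay near 5830416I19Rik, in Dock8, a guanine exchange factor gene of lymphocytes, near Gprc5b, at Elavl2, near Gm33347 and in Dock9, with folds from 8.66 to 14.4.

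At promoters the genotypes shared nearly all calls. Of 21631 protein-coding genes, 13801 (63.8%) had an H3K4me3 peak within 1 kb of the start in both libraries, 255 (1.18%) in RXRKO only, 99 (0.458%) in WT only and 7476 in neither. At an equal number of peaks 152 (0.703%) were RXRKO only and 156 (0.721%) WT only. The lean of the full lists toward RXRKO was not seen there, but that setting itself brings such counts together. Some of these calls came with a peak of the other genotype beyond the 1 kb window. For 102 of the 255 RXRKO-only and 31 of the 99 WT-only promoters the other genotype had a peak within 5 kb. Among the WT-only calls, 18 genes rest on 1 peak at the shared 3' end of the protocadherin gamma cluster, where the strand of the genes was not available to the start rule. Over the 17274 genes of known strand, 184 (1.07%) were RXRKO only and 62 (0.359%) WT only.

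The strongest RXRKO-only promoters included Elavl2, Gabrg1 and the neuronal extracellular matrix gene Spock3, the germ cell gene Rnf17, the mu-crystallin gene Crym and 4 clustered protocadherin genes. Of 153 RXRKO-only promoters without a WT peak within 5 kb, 20 had a peak with a -log10 q of 20 or more, resting on 19 peaks. At 8 of those 19 H3K4me1 was called in RXRKO replicate 2 alone, at 6 in all 4 libraries and at 3 in none. Over all 153 promoters H3K4me1 was called in both RXRKO libraries and no WT library at 1. H3K27ac was called at 66 in WT and 61 in RXRKO. Of 68 WT-only promoters without an RXRKO peak within 5 kb, 3 reached a -log10 q of 20: Gm8909, the zinc finger gene Zfp972 (fold 8.79) and Tespa1, a gene of T cell receptor signalling (fold 7.74). Slc17a8 and Spaca1, a sperm acrosome gene, followed with folds of 4.37 and 7.03. At these promoters H3K4me1 was called in WT replicate 2 alone for Gm8909, Slc17a8 and Spaca1, in no library for Zfp972 and in all 4 for Tespa1.

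Where both genotypes carried the mark, they carried it over nearly the same length. H3K4me3 within 5 kb of the start covered a median of 1720 bp in WT and 1761 bp in RXRKO over the 13801 shared promoters, and the median log2 ratio of RXRKO over WT was 0.02. For 79.2% of promoters the lengths were within 1.1-fold of each other. RXRKO was longer at 8518 (61.7%) and WT at 5224. A length at least 2-fold greater was seen at 72 promoters in RXRKO (0.522%) and at 10 in WT (0.0725%). Over promoters with a mean length under 1000 bp, 71.4% were longer in RXRKO, with a median log2 ratio of 0.10. Both flanks were of similar length in both libraries. The median length was 510.5 bp upstream and 1111 bp downstream of the start in WT, and 527 and 1131 bp in RXRKO. The strongest summit lay a median of 166 bp downstream of the start in WT and 177 bp in RXRKO, and the summits of both libraries differed by a median of 24 bp.

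The 10 promoters with the largest length ratios toward RXRKO were led by Gjd2. Gjd2, a neuronal gap junction gene (chr2, 114009601 to 114014378), had 243 bp in WT and 1388 bp in RXRKO, a log2 ratio of 2.51. Pcsk2, a prohormone convertase gene of endocrine cells and neurons, had 496 and 1933 bp, and Kcna5, a potassium channel gene, had 350 and 1266 bp. The others of the 10 were 1700034E13Rik, Dipk2b, Bpifc, Prss51, Galnt17, Zfp819 and Pgr15l, with log2 ratios from 1.80 to 2.34. H3K4me1 was called at Gjd2 in both RXRKO libraries and WT replicate 2, and at Pcsk2 in both RXRKO libraries and no WT library.

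The 10 promoters with the largest length ratios toward WT were led by P2ry10 and Ncf4. P2ry10, a lysophospholipid receptor gene of lymphocytes (chrX, 107088492 to 107104974), had 1681 bp in WT and 229 bp in RXRKO, a log2 ratio of -2.88. Ncf4, a subunit gene of the phagocyte NADPH oxidase, had 1004 and 231 bp. Cd86, a costimulatory ligand gene, had 1432 and 663 bp, Gimap3, a GTPase gene of lymphocyte survival, 1327 and 587 bp, and Clnk, an adaptor gene of immune receptors, 1261 and 575 bp. H3K4me1 was called at all 5 in every H3K4me1 library, and H3K27ac in both genotypes. The RXRKO peak at P2ry10 was weak and was not among the top 47835. Among peaks with a fold of 4 or more the direction held at Cd86 (1163 and 663 bp) and Clnk (903 and 575 bp) and turned at Gimap3 (411 and 587 bp). The other 5 were Gm10499 of the H2-T cluster, Rbm46, Gda, C1qtnf7 and Ebi3, a cytokine subunit gene, with log2 ratios from -1.92 to -0.87. The lists of blood and immune genes did not share this direction. Of their promoters called in both, 6 granulocyte and monocyte genes were longer in RXRKO and 1 in WT, as were 8 and 2 T and NK cell genes and 19 and 9 interferon and inflammation genes. Over all shared promoters 61.7% were longer in RXRKO, so a lean this way is not particular to these lists.

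**Figure D4:**
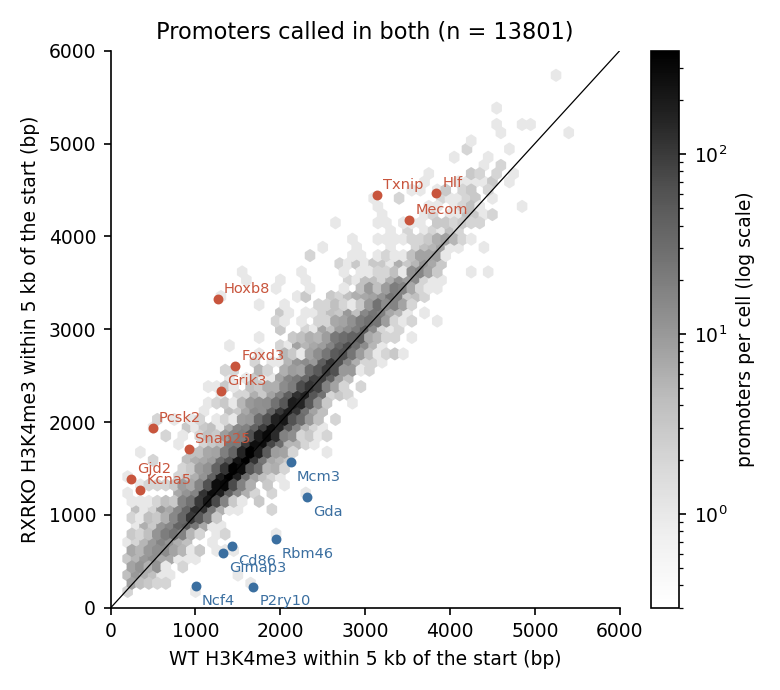
H3K4me3 length within 5 kb of the start (bp) in WT (x axis) and RXRKO (y axis) for the 13801 promoters called in both, 1 library each. Shading gives promoters per cell on a log scale, the line marks equal length, and named promoters longer in RXRKO (red) or WT (blue) are labelled. Most promoters lie along the line, with Gjd2 and P2ry10 among the farthest from it.

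The widest H3K4me3 domains included genes of HSC and blood biology in both libraries. By the mean of both libraries, the gene with the most H3K4me3 within 5 kb was Prdm16, a regulator of HSC maintenance (chr4, 154316122 to 154637360), with 5282 bp in WT and 5716 bp in RXRKO. Ccnd2, the cyclin D2 gene, had 4530 and 5163 bp, H2-DMa, a gene of MHC class II loading, 4513 and 5361 bp, and Nr4a3, a nuclear receptor gene, 4711 and 4712 bp. Gtpbp1, Erf, Ppp1r18, Pcdh7, Pcdh10 and Josd1 completed the 10, with 4566 to 5446 bp in WT and 4806 to 5242 bp in RXRKO. Gtpbp1 and Josd1 are neighbours on chromosome 15, so their windows can share bases. With peaks less than 500 bp apart joined, the widest WT domain lay at Tgif1 (5759 bp, of which RXRKO covered 4367 bp) and the widest RXRKO domain at Txnip, a gene that restrains glucose uptake (6013 bp, of which WT covered 3138 bp). Other domains among the 10 widest lay at Foxo3, Jarid2, Mllt6 and Bbc3 in WT and at Pim1, Ptger4, Ikzf2 and Ppp1r9b in RXRKO, and Pcdh7 and Erf stood in both lists. Domains of at least 4000 bp numbered 103 in WT and 134 in RXRKO, 0.229% and 0.245% of all joined regions.

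The deleted receptor genes kept H3K4me3 at their starts in RXRKO. Within 5 kb of the start, Rxra had 1717 bp in WT and 1778 bp in RXRKO, and Rxrb had 2967 and 3492 bp. Rxrg, the third receptor gene, had 1495 and 1504 bp. Across the Rxra gene body WT had 11 peaks over 6807 bp and RXRKO 14 over 9175 bp, and the 3 RXRKO peaks without a WT counterpart had folds from 2.51 to 3.33. A mark at a promoter does not show whether a deletion downstream of it took place. Of 23 receptors and partners, 20 were called in both and 3 in neither. The 20 had a median log2 ratio of 0.04, with 15 longer in RXRKO, and Nr4a1, an immediate early nuclear receptor gene, differed most with 1396 and 2083 bp. Of 34 target genes of RXR partners, 26 were called in both and 8 in neither, with 13 longer in each genotype. Abcg1, a cholesterol exporter gene and liver X receptor target, had 2248 and 2149 bp, and the start of Pdk4, a pyruvate dehydrogenase kinase gene, 1191 and 1212 bp. These lengths leave out distal sites. A WT-only peak at 31011653 to 31012186 on chromosome 17 had Abcg1 as the nearest start. Another at 5509297 to 5510234 on chromosome 6 had Pdk4. H3K27ac covered 470 and 938 bp of these peaks in WT and 0 bp in RXRKO, and H3K4me1 was called at both in every library. Both were chosen after their values were seen, and distal peaks of the other targets were not counted.

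MYC, cell cycle and quiescence genes had H3K4me3 in both libraries with few exceptions. All 14 MYC family and partner genes were called in both. Myc had 4114 bp in WT and 4127 bp in RXRKO, Mycn 4251 and 4621 bp, and Mxd4, a repressor that competes with MYC for MAX, 2342 and 2349 bp. Mlxipl, a glucose-sensing factor of the MAX network, differed most with 424 and 897 bp. Of 48 MYC targets of ribosome assembly and growth, 47 were called in both with a median log2 ratio of 0.01. All 36 cell cycle genes were called in both, 17 longer in RXRKO and 19 in WT, with a median of -0.01. The replication genes Mcm3 and Rrm2 differed most and were longer in WT, with 2120 against 1568 bp and 2445 against 1998 bp, but from peaks with a fold of 4 or more Rrm2 had 1861 bp in WT and 1998 bp in RXRKO. Of 34 quiescence genes 33 were called in both, with a median of 0.01. Among them Txnip had 3138 bp in WT and 4448 bp in RXRKO, Ndn 962 and 1229 bp, and Cdkn1c, a cell cycle inhibitor gene of quiescent HSCs, 2677 and 2815 bp. From peaks with a fold of 4 or more, Cdkn1c had 834 and 2370 bp.

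HSC regulators had wide promoters. Of 34, 33 were called in both, with median lengths of 3253 bp in WT and 3717 bp in RXRKO and 20 longer in RXRKO. Hlf had 3834 and 4469 bp, Mecom 3521 and 4175 bp, Runx1 3195 and 3723 bp, Gata2 3817 and 3939 bp, Meis1 2443 and 2469 bp and Hoxb5 2863 and 3846 bp. At an equal number of peaks the RXRKO lengths were 4120 bp at Hlf, 3702 bp at Mecom and 3269 bp at Hoxb5, with the WT lengths as before, and the median log2 ratio of the list was 0.02. Most of these wide promoters had no peak of a fold of at least 4 in either genotype. At that fold 9 promoters could be compared, of which 3 were longer in RXRKO and 6 in WT. Hoxa9 was called in WT only, but within 5 kb of its start 2518 bp were covered in WT and 2955 bp in RXRKO. This length can include peaks of neighbouring Hox genes, and no peak was traced between the libraries. Of 22 surface receptors and sort markers, 18 were called in both. Procr, the gene of the endothelial protein C receptor, had 2763 and 2835 bp. Cd48, whose protein was absent from the sorted cells, was called in RXRKO only with 530 bp and in neither library at an equal number of peaks.

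Developmental and neuronal promoters leaned toward RXRKO more than the 61.7% of all shared promoters did. Of 60 homeobox and developmental factors called in both, 51 (85%) were longer in RXRKO, with median lengths of 2186 bp in WT and 2398.5 bp in RXRKO and a median log2 ratio of 0.11. Foxd3, a neural crest factor gene, had 1466 and 2606 bp. Of 33 clustered Hox genes called in both, 25 were longer in RXRKO with a median of 0.10, and Hoxb8 had 1261 bp in WT and 3324 bp in RXRKO, but 159 and 0 bp from peaks with a fold of 4 or more. Of 35 neuronal genes called in both, 29 (82.9%) were longer in RXRKO with a median of 0.11, among them the synaptic gene Snap25 with 918 and 1713 bp and the glutamate receptor gene Grik3 with 1303 and 2337 bp. Neighbouring Hox genes can share peaks within these windows, so the 33 are not separate promoters. At an equal number of peaks 49 of 60 developmental (81.7%), 21 of 33 Hox (63.6%) and 29 of 35 neuronal promoters (82.9%) were longer in RXRKO. Over all promoters the share was 60.6%, so that of the Hox genes was near it. Where only peaks with a fold of 4 or more were kept, the counts were 37 of 48, 14 of 19 and 28 of 35, against 59.8% of all. These counts describe 1 library for each genotype and lists chosen with earlier results of these data known. The part of background and depth in them was not tested.

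Promoter calls in RXRKO alone were most frequent in the neuronal list among the 23 lists. The lists were chosen with earlier results of these data known, so this rank is a description and not separate evidence. Of 54 neuronal genes, 7 were called in RXRKO only, against a background of 1.18%: Elavl2, Gabrg1, Spock3, Dpp6, the glutamate receptor genes Grm5 and Grm7, and Nrxn3, a synaptic adhesion gene. None of these 7 had a WT peak within 5 kb, and their RXRKO lengths ran from 479 to 1480 bp. H3K4me1 was called in RXRKO replicate 2 alone at Gabrg1, Spock3 and Dpp6, and in replicate 2 of both genotypes at Grm5 and Grm7. It was called in WT replicate 1 and RXRKO replicate 2 at Nrxn3, and in all libraries but WT replicate 2 at Elavl2. H3K27ac was called at none of the 7 in either genotype. Grik2 was called in WT only but had 894 and 920 bp within 5 kb. Of 68 developmental factors, 4 were called in RXRKO only, Nkx2-5, Lhx3, Tbx5 and Evx1, of which 1, Nkx2-5, kept that call at an equal number of peaks. Among clustered Hox genes 1, Hoxd4, was called in RXRKO only with 318 bp, and 1, Hoxa9, in WT only. None was RXRKO only at an equal number of peaks, and 2, Hoxa9 and Hoxb3, were WT only. Of 36 germ cell genes, Rnf17 and Bmp15 were RXRKO only and Spaca1 was WT only, and at an equal number of peaks Bmp15 was called in neither. Among clustered protocadherins, neuronal adhesion genes whose copies share sequence, 57 were measured. Of these, 16 were called in both, 11 in the RXRKO list alone and 15 in the WT list alone, the last largely through the peak at the shared 3' end.

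Genes of mature blood lineages differed in how many carried H3K4me3. Against 63.8% of all protein-coding genes, both libraries called 10 of 21 erythroid, 15 of 19 megakaryocyte, 7 of 26 granulocyte and monocyte, 3 of 19 B cell and 10 of 24 T and NK cell genes. Of the 10 erythroid promoters 9 were longer in RXRKO, with a median log2 ratio of 0.15, among them the ankyrin gene Ank1 with 1450 and 1798 bp. Among megakaryocyte genes, the integrin gene Itgb3 had 2330 and 3421 bp and Treml1, a platelet receptor gene, 1062 and 1810 bp. At an equal number of peaks Treml1 was longer in WT, with 1062 and 983 bp, and the megakaryocyte list had 7 promoters longer in each genotype. Tubb1, a platelet tubulin gene, was called in RXRKO only, as were Cx3cr1, Cd68, Blnk, Lck and Klrb1c, and WT had 256 to 1990 bp within 5 kb of each of them. Tubb1, Cx3cr1 and Klrb1c were called in neither library at an equal number of peaks. Of 52 ribosomal protein genes 50 were called in both. The one call that differed, Rpl22 in RXRKO only, came with 1762 bp in WT and 1768 bp in RXRKO.

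Among other lists, interferon and inflammation genes had 28 of 30 promoters called in both, with Nfkbia, the gene of an NF-kappa-B inhibitor, at 2326 and 3205 bp and Ifit2, an interferon-induced gene, at 1542 and 2107 bp. From peaks with a fold of 4 or more, Ifit2 had 1034 bp in WT and 1022 bp in RXRKO, and Nfkbia had 2326 bp in WT and 0 bp in RXRKO. Housekeeping genes had 25 of 26 called in both and a median log2 ratio of 0.02. Of 28 imprinted genes 23 were called in both, and Peg3 and Usp29, which share a promoter, had 1716 bp in WT and 2411 bp in RXRKO. Olfactory receptor genes had 7 of 1110 promoters called in both and 5 in RXRKO only, both smaller shares than the 63.8% and 1.18% of all protein-coding genes. Of 44 genes restricted to other organs, 33 were called in neither library and 10 in both. Stromal and endothelial genes had 13 of 19 called in both, and the endothelial receptor gene Tie1 had 1630 and 2459 bp.

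Promoters called in 1 genotype held fewer CpGs than those called in both. A 300-base sequence was matched within 1 kb of the start for 15534 genes. Promoters called in both held a median of 21 CpGs, against 5 for RXRKO-only, 7 for WT-only and 2 for promoters called in neither. Single promoters of these classes overlapped more than the examples printed above show. Procr, called in both, held 13 CpGs, Adgra1, RXRKO only, held 17 and Spaca1, WT only, held 16. CpG-rich promoters, with a GC content of at least 50% and a ratio of observed to expected CpG of at least 0.6, made up 70.0% of those called in both, 8.05% of RXRKO-only, 14.6% of WT-only and 2.81% of those in neither. H3K4me3 was called in both genotypes at 3.89% of promoters with 0 or 1 CpG, at 49.0% with 5 to 9 and at 99.0% with 30 or more. The share called in 1 genotype was greatest at 5 to 9 CpGs, 2.28% in RXRKO only and 1.02% in WT only.

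**Figure D5:**
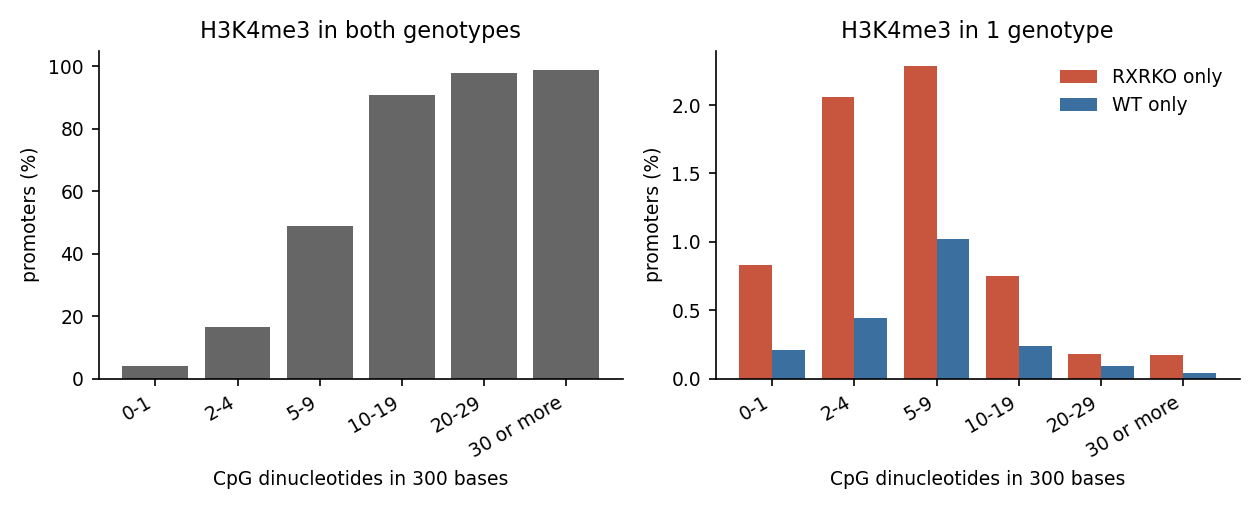
Share of promoters (%) with H3K4me3 in both genotypes (left) and in RXRKO or WT only (right) by the number of CpG dinucleotides in the 300 bases around the start. The share in both goes from 3.89% to 99.0%, and calls of 1 genotype are most frequent at 5 to 9 CpGs, at 2.28% (RXRKO only) and 1.02% (WT only).

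The nuclear receptor half-site AGGTCA and the E-box CACGTG bound by MYC and its partners were searched on both strands of the 300 bases. Each motif was counted on its own, and overlaps between them were not removed. AGGTCA was present in 14.2% of all promoters, in 11.2% of those called in both, in 18.1% (27 of 149) of RXRKO-only, in 31.3% (15 of 48) of WT-only and in 19.7% of those in neither. CACGTG was present in 8.11% of all, in 10.3% of those called in both, in 7.38% of RXRKO-only, in 6.25% of WT-only and in 3.75% of those in neither. These are matches of letters in a fixed window, and the classes also differ in CpG content as given above.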

How the data were processed

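The lists were made by the authors with cutadapt 1.7.1, Bowtie2 2.2.5 and MACS3 on the mm10 build, per the submitters' processing notes, with 1 list per library. Neither the MACS3 version nor the use of a control library, duplicates or spike-in is stated there. The deposited lists hold the authors' score (10 times -log10 q cut to a whole number in nearly all rows), fold over background as a ratio, and -log10 p and -log10 q. These rank peaks within a list and were not compared between lists as amounts of mark. Depth is unknown, since the files give no read totals, and no intervals were computed.

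Overlap meant at least 1 bp. Coordinates are 1-based on mm10, and gene positions are those of RefSeq GRCm38.p6 without exons. A gene's start was its 5' end for the 17274 genes with a strand in the promoter table. For 3118 others it was the end with more H3K4me3 within 2 kb over both genotypes, and both ends were used for 1239 ties, so for these genes the start itself depends on H3K4me3. A promoter was called by a peak within 1 kb, and covered length was counted within 5 kb. With 1 library a genotype no test was made. Members and all 23 gene lists were chosen with earlier results of these data known. Named genes were the 10 strongest peaks without a counterpart and 10 largest length ratios in each direction (at least 1000 bp in the longer), the 10 widest promoters and domains, list members with differing calls or the 2 largest length differences, and a fixed set of receptor, MYC and HSC genes, from which 10 or fewer examples are printed. Further strong promoters, Firre, the H2-T cluster and the windows around the deleted genes were chosen after their values were seen. Some genes that this rule names are not reported here. Alternatives covered overlap, joining, rank, threshold, window, chromosomes and H3K4me1 replicates. Scripts used Python 3.11.15, pandas 2.3.3 and numpy 2.4.6, and the overlap code was checked against bedtools 2.31.1 and tested on simulated data.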

Additional observations from a re-analysis of the deposited data

How the results depend on the processing

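With a fold of at least 4 required in both lists, 39283 RXRKO and 36981 WT peaks were left. The number of RXRKO peaks without a WT counterpart then went from 13355 (23%) to 5609 (14.3%). That of WT peaks without an RXRKO counterpart went from 2539 (5.31%) to 3227 (8.73%). With each list limited to the same covered length, 38773 RXRKO peaks were set against 47835 WT peaks. The equal-number counts went from 5746 (12%) to 1578 (4.07%) in RXRKO and from 5098 (10.7%) to 9978 (20.9%) in WT. The genotype with more unmatched peaks thus depends on how the lists are made equal. RXRKO-only promoters went from 255 to 152 at an equal number of peaks and to 153 where no WT peak lay within 5 kb. WT-only promoters went from 99 (0.458%) to 156 (0.721%) at an equal number of peaks and to 213 (0.985%) at a fold of at least 4. Over the 17274 genes of known strand they numbered 62 (0.359%). The 5 kb and known-strand settings were added after the data were seen. The median log2 ratio of length, 0.020, was 0.018 at an equal number of peaks, 0.016 within 2 kb of the start and 0.016 at a fold of at least 4. The other overlap, joining, threshold, window and chromosome settings kept each count within 1.5 times. The difference in H3K4me1 share over RXRKO-only peaks, 3.16 points, ranged from 1.20 to 5.12 with 1 H3K4me1 library left out, and that over WT-only peaks, -8.71 points, from -13.8 to -3.61. Averaging within replicate numbers as a block gave the same 3.16 and -8.71 points, since each number holds both genotypes. At an equal number of peaks the differences were 3.77 and -5.26 points. The cause of these changes was not tested. Depth is unknown, and the higher background of the RXRKO list, 6.68 against 4.12, limits every count of weak peaks.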
